A study of Mus musculus with 23 samples.

Results

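The transcripts described here are those of the mouse mitochondrial genome, chosen as every row of the expression table whose gene symbol starts with mt-. The GENCODE M21 annotation (assembly GRCm38) holds 37 such genes, and 35 of them are among the 14500 genes of the table. They comprise all 13 mRNAs, both ribosomal RNAs and 20 of 22 transfer RNAs; mt-Tf and mt-Tk were not analysed here. Of the 35, 33 passed the filter for testing, an FPKM (fragments scaled to exon length and library size) of at least 1 in at least 2 libraries. mt-Td, with 0 to 2 reads a library, and mt-Ts1, with 0 to 3, did not.

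The study asked how loss of sympathetic innervation affects the clock of skeletal muscle, and sequenced total RNA of the whole tibialis anterior, a mostly fast-twitch shin muscle, in 23 libraries. All mice were female C57BL/6 fed ad libitum. The neurotoxin 6-hydroxydopamine (6-OHDA), which destroys sympathetic nerve endings, was dissolved in ascorbic acid and injected into the muscle at 50 mg/kg, repeatedly over 2 weeks, and 2 further weeks were left for recovery. Muscle taken as sham had received no injection, so the agent, its vehicle and the injections cannot be told apart.

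Wild-type mice gave 4 sham libraries at ZT0 (lights on) and 3 at ZT12 (lights off), at 12 to 18 weeks of age. Wild-type 6-OHDA muscle gave 4 libraries at each time, at 12 to 16 weeks. In the other genotype, called RE-RE, both alleles of the clock gene Bmal1 are blocked by a stop cassette that Cre removes, Bmal1(stopFL/stopFL). These mice carry 1 copy each of Syt10-Cre(-/tg), which acts in the brain's central clock among other neurons, and of Hsa-Cre(-/tg), which acts in muscle fibres. Other cells of the muscle therefore keep the cassette. RE-RE muscle gave 2 sham libraries at each time, at 10 to 11 weeks, and 2 6-OHDA libraries at each time, at 12 to 18 weeks. Libraries of a group that differ in age came from different mice. For libraries of equal age, such as the RE-RE sham libraries of ZT12, the labels do not say so. If those did not, the p-values below measure a spread that may be technical in part.

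Reads recovered from the deposited values, over genes of the table with an exon length, came to 21.1 to 36.1 M a library (M, mega), with a median of 28.1 M. Some RE-RE libraries stood apart from their groups. Summed macrophage markers reached 351 and 403 FPKM in RE-RE 6-OHDA libraries 1 and 4 but only 22.5 and 107 FPKM in libraries 2 and 3, against 35.6 to 114 FPKM in RE-RE sham muscle. RE-RE sham library 1 had 1083 FPKM of matrix genes, against 256 to 599 FPKM in the other RE-RE sham libraries. The median residual SD of the members was 0.64 on the log2 scale in wild-type and 0.96 in RE-RE groups, and over all tested genes 0.22 and 0.45. Since the tests pool the spread over all 8 groups, they understate the error of RE-RE comparisons and overstate that of wild-type ones.

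As background, mitochondrial DNA is a small circle that is transcribed from both strands into long precursors, which are cut mostly at the transfer RNAs that lie between the other genes. All its mRNAs encode membrane subunits of respiratory complexes I, III and IV and of ATP synthase, which nuclear genes complete. The fastest type of muscle fibre holds fewer mitochondria than slow fibres.

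The sequences of 4 transfer RNAs that the results below turn on are shown. mt-Tp (proline; M:15356-15422, minus strand) was the most abundant transfer RNA gene, and mt-Te (glutamate; M:14071-14139, minus strand) lies between mt-Nd6 and mt-Cytb. mt-Tl1 (leucine; M:2676-2750, plus strand) joins the ribosomal RNAs to mt-Nd1, and mt-Ti (isoleucine; M:3706-3774, plus strand) was the one member called between times of day. They are printed 5′ to 3′ in the sense of the gene, in lower case, from the GENCODE M21 transcripts of GRCm38.
mt-Tp: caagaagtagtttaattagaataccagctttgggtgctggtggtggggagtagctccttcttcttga
mt-Te: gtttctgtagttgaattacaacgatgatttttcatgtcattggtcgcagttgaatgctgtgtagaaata
mt-Tl1: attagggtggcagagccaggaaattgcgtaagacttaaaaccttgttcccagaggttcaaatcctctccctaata
mt-Ti: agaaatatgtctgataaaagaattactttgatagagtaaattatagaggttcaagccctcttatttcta
The transfer RNA genes of the table are 59 to 75 bases long, shorter than the 150-base reads, so a read assigned to one cannot be told apart from a read of a longer precursor.

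Neighbouring mRNAs of the genome overlap, and reads over the shared bases cannot be assigned to a single gene. The capitals mark the 43 bases shared by mt-Atp8 and mt-Atp6 (window M:7915-7981, plus strand) and the 7 bases shared by mt-Nd4l and mt-Nd4 (window M:10155-10185, plus strand).
mt-Atp8 into mt-Atp6: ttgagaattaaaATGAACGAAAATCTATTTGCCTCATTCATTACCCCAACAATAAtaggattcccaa
mt-Nd4l into mt-Nd4: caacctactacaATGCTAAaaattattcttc
mt-Nd5 and mt-Nd6, on opposite strands, share 14 bases.

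Part of the genome also has a near-identical nuclear copy, which bears on the mRNA values between mt-Co1 and mt-Nd4. Transcript models of 7 unprocessed pseudogenes on chromosome 1 (24611535 to 24616197, minus strand) matched M:6390-11042 at 99% identity or more, with identical runs of 294 to 876 bases. The capitals below mark the only base that differs in the 483 aligned bases of mt-Co1 and its copy Gm29216, A1066T, counted from the 5′ end of mt-Co1, with the mitochondrial base first.
mt-Co1 (M:6390-6450): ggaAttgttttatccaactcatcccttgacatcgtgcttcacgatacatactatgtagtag
Gm29216: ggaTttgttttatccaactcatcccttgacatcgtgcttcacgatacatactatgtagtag
mt-Co2, mt-Atp6, mt-Co3 and mt-Nd4l each matched their copies without a difference. A read from such a stretch fits both places. How reads with several matches were counted is not given in the sources used here, so the mRNAs are described in 2 sets. Outside the copied interval or only partly in it were 7 mRNAs (mt-Nd1, mt-Nd2, mt-Co1 with 31.3% of its length copied, mt-Nd4 with 63.6%, mt-Nd5, mt-Nd6 and mt-Cytb). Inside it were 6 (mt-Co2, mt-Atp8, mt-Atp6, mt-Co3, mt-Nd3 and mt-Nd4l). mt-Atp8 is placed by its position, since no copy of it has a transcript model and its sequence, like that of the transfer RNAs there, was not compared.

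In wild-type sham muscle the 7 mRNAs outside the copied interval were the highest members. mt-Co1, the catalytic subunit of complex IV, stood at 55920 ± 7583 FPKM (SD, n = 7) and ranked 1 of all genes in the table. mt-Cytb, the cytochrome b subunit of complex III, followed at 31406 ± 4528 FPKM (SD, n = 7). The complex I subunits among them ranged from 24738 ± 4551 FPKM (SD, n = 7) for mt-Nd1 to 10955 ± 1448 FPKM (SD, n = 7) for mt-Nd6, the only mRNA on the minus strand.

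The mRNAs inside the copied interval stood lower. The complex IV subunits mt-Co2 and mt-Co3 held 3075 ± 1617 and 3048 ± 1930 FPKM (SD, n = 7), with a wide spread between libraries of the same treatment. mt-Atp8, the smaller of the ATP synthase subunits, held 147 FPKM and mt-Nd3 140 FPKM. Within every library mt-Co1 exceeded mt-Co2, which belongs to the same complex, and the part of the nuclear copy in that gap was not tested. The ribosomal RNAs mt-Rnr1 (12S) and mt-Rnr2 (16S) held 2474 and 2419 FPKM, below 10 of the mRNAs on this per-length scale.

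Transfer RNA genes spanned from 4268 ± 791 FPKM (SD, n = 7) for mt-Tp to 0.0904 FPKM for mt-Td. The 5 highest, mt-Tp, mt-Tc (974 FPKM), mt-Te (700 FPKM), mt-Tn (293 FPKM) and mt-Ty (219 FPKM), all lie on the minus strand. The highest of the plus strand was mt-Tl1 at 105 FPKM. The minus strand is opposite to most mRNAs and both ribosomal RNAs, and whether reads were counted by strand is not given in the sources used here. Reads of a minus-strand gene and of an antisense transcript cannot then be told apart.

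**Figure D1:**
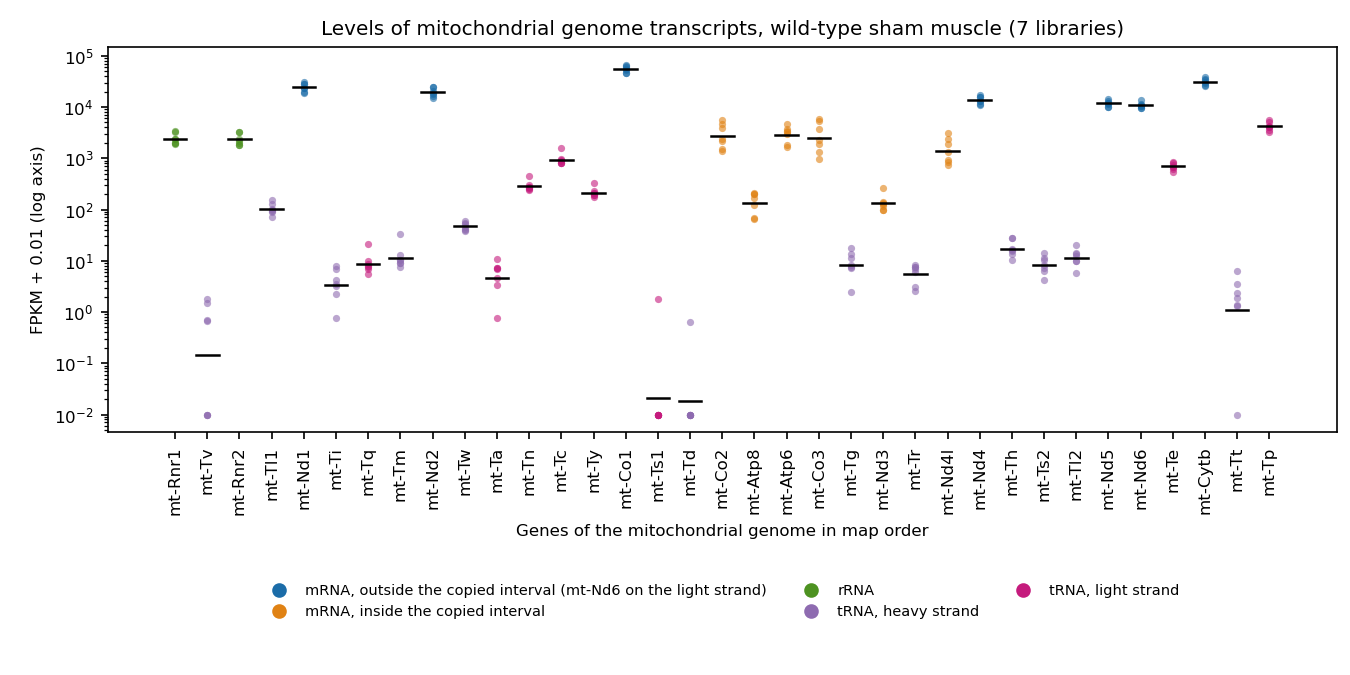
FPKM (plus 0.01, log axis) of each mitochondrial gene of the table, in map order, in the 7 wild-type sham libraries; each point is 1 library, the bar is the mean on the log scale, and colours give the RNA class and strand. mt-Co1 and mt-Cytb stand highest, the 6 mRNAs inside the copied interval stand below the 7 outside it, and points at the bottom are libraries listed at 0.

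6-OHDA muscle of wild-type mice held less of nearly every mitochondrial transcript than sham muscle. With the mean of both times compared, 29 of 33 members were lower and 0 higher (limma on the deposited log2 values, Benjamini-Hochberg over 12820 genes, adjusted p under 0.05), against 15.9% of all tested genes called lower and 18.8% called higher. The median log2 difference of the members was -1.55, and that of all tested genes was -0.04. The members are cut from shared precursors, so they are not independent of each other. The 4 members that did not pass were mt-Atp8, mt-Tg, mt-Tt and mt-Tv. In this bulk tissue, fewer muscle cells and less mitochondrial RNA per cell cannot be told apart.

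The ribosomal RNAs, which form the mitochondrial ribosome, separated the groups without overlap. mt-Rnr2 (M:1094-2675) held 3307, 2194, 3331 and 2395 FPKM in sham libraries at ZT0 and 1849, 2015 and 1842 FPKM at ZT12. After 6-OHDA it held 509, 767, 671 and 1280 FPKM at ZT0 and 1289, 734, 983 and 1192 FPKM at ZT12. The highest 6-OHDA library stood below the lowest sham library. The log2 difference was -1.37 ± 0.26 (SE; 2.59-fold lower; limma adjusted p = 0.00171), and mt-Rnr1 (M:70-1024) differed by -1.34 ± 0.25 (SE; limma adjusted p = 0.00177).

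All 7 mRNAs outside the copied interval were lower, with log2 differences from -1.25 to -0.92. mt-Nd1, which belongs to the proton-pumping arm of complex I, held 28030, 18963, 31131 and 23187 FPKM in sham muscle at ZT0 and 23533, 28325 and 19996 FPKM at ZT12. After 6-OHDA it held 5881, 9641, 7204 and 14060 FPKM at ZT0, and 17094, 9478, 15003 and 15417 FPKM at ZT12. The groups did not overlap, and 3 of the 4 6-OHDA libraries of ZT12 lay above all those of ZT0. The difference of mt-Nd1 was -1.14 ± 0.31 (SE; limma adjusted p = 0.0093).

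mt-Co1 (M:5328-6872) held 46724 to 66915 FPKM in sham libraries with a median of 55076 FPKM. It held 17066, 26296, 20402 and 36381 FPKM after 6-OHDA at ZT0, and 43716, 23812, 39314 and 38918 FPKM at ZT12. Its log2 difference of -0.92 ± 0.32 (SE; 1.89-fold; limma adjusted p = 0.0341) was the smallest among the mRNAs. mt-Cytb (M:14145-15288) differed by -1.04 ± 0.30 (SE; limma adjusted p = 0.0139).

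mt-Nd6, a complex I subunit read from the opposite strand, was lower as well. It held 9651 to 13914 FPKM in sham muscle, 3481, 4814, 4267 and 6219 FPKM after 6-OHDA at ZT0 and 7768, 5240, 7171 and 7382 FPKM at ZT12. No 6-OHDA library reached the lowest sham library. The difference was -0.96 ± 0.24 (SE; limma adjusted p = 0.00713).

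Of the 6 mRNAs inside the copied interval 5 were lower, with a class median of -1.94 on the log2 scale. mt-Co3, a core subunit of complex IV, held 3744, 2254, 5366 and 1894 FPKM in sham libraries at ZT0 and 1344, 5755 and 976.7 FPKM at ZT12. After 6-OHDA it held 126, 471, 396 and 476 FPKM at ZT0 and 823, 353, 815 and 891 FPKM at ZT12. The groups did not overlap, and its difference of -2.38 ± 0.50 (SE; 5.20-fold lower; limma adjusted p = 0.0026) was the largest among the mRNAs. mt-Co2 differed by -2.05 ± 0.44 (SE; limma adjusted p = 0.00297), with overlapping groups.

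mt-Atp8 was the exception among mRNAs. Its 6-OHDA libraries held 10.1 to 141 FPKM, apart from library 5 at ZT12, which held 1358 FPKM, above all sham libraries at 66.8 to 210 FPKM. The log2 difference was -1.18 ± 0.78 (SE; limma adjusted p = 0.249). mt-Atp6, which overlaps it and holds the proton channel of ATP synthase, was lower by 3.56-fold (limma adjusted p = 0.00937).

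Most of the nuclear copies were lower too. Of the 7 copies 6 passed the test, with log2 differences from -1.51 for Gm10925 to -1.23 for Gm10222. Gm28661, the copy of mt-Co2, differed by -0.87 (limma adjusted p = 0.139). The copies held 0.0315% to 0.278% of a library's recovered reads. How many of these reads came from mitochondrial RNA was not tested.

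Transfer RNA genes were lower on both strands, 8 of 11 on the plus strand and 7 of 7 on the minus strand. mt-Te held 810, 543, 850 and 623 FPKM in sham muscle at ZT0 and 672, 680 and 724 FPKM at ZT12. After 6-OHDA it held 116, 199, 129 and 339 FPKM at ZT0 and 452, 179, 270 and 324 FPKM at ZT12. Every 6-OHDA library lay below every sham library, and the difference was -1.61 ± 0.33 (SE; limma adjusted p = 0.00247).

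mt-Tp had the smallest log2 difference of all members, -0.71 ± 0.24 (SE; 1.64-fold; limma adjusted p = 0.0291). Its sham libraries held 3268 to 5514 FPKM and its 6-OHDA libraries 1464, 2460, 1978 and 3139 FPKM at ZT0 and 3805, 2362, 3267 and 3132 FPKM at ZT12, so the groups overlapped. The largest fitted differences, -4.04 for mt-Ta and -3.49 for mt-Ti, rest on few reads. mt-Ta had 1 to 18 reads in sham and 0 to 5 reads in 6-OHDA libraries, and such values depend on the 0.01 added before the logarithm. Over the 27 members with no library at 0 reads, a set chosen after seeing the data, 26 were lower with a median of -1.37.

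**Figure D2:**
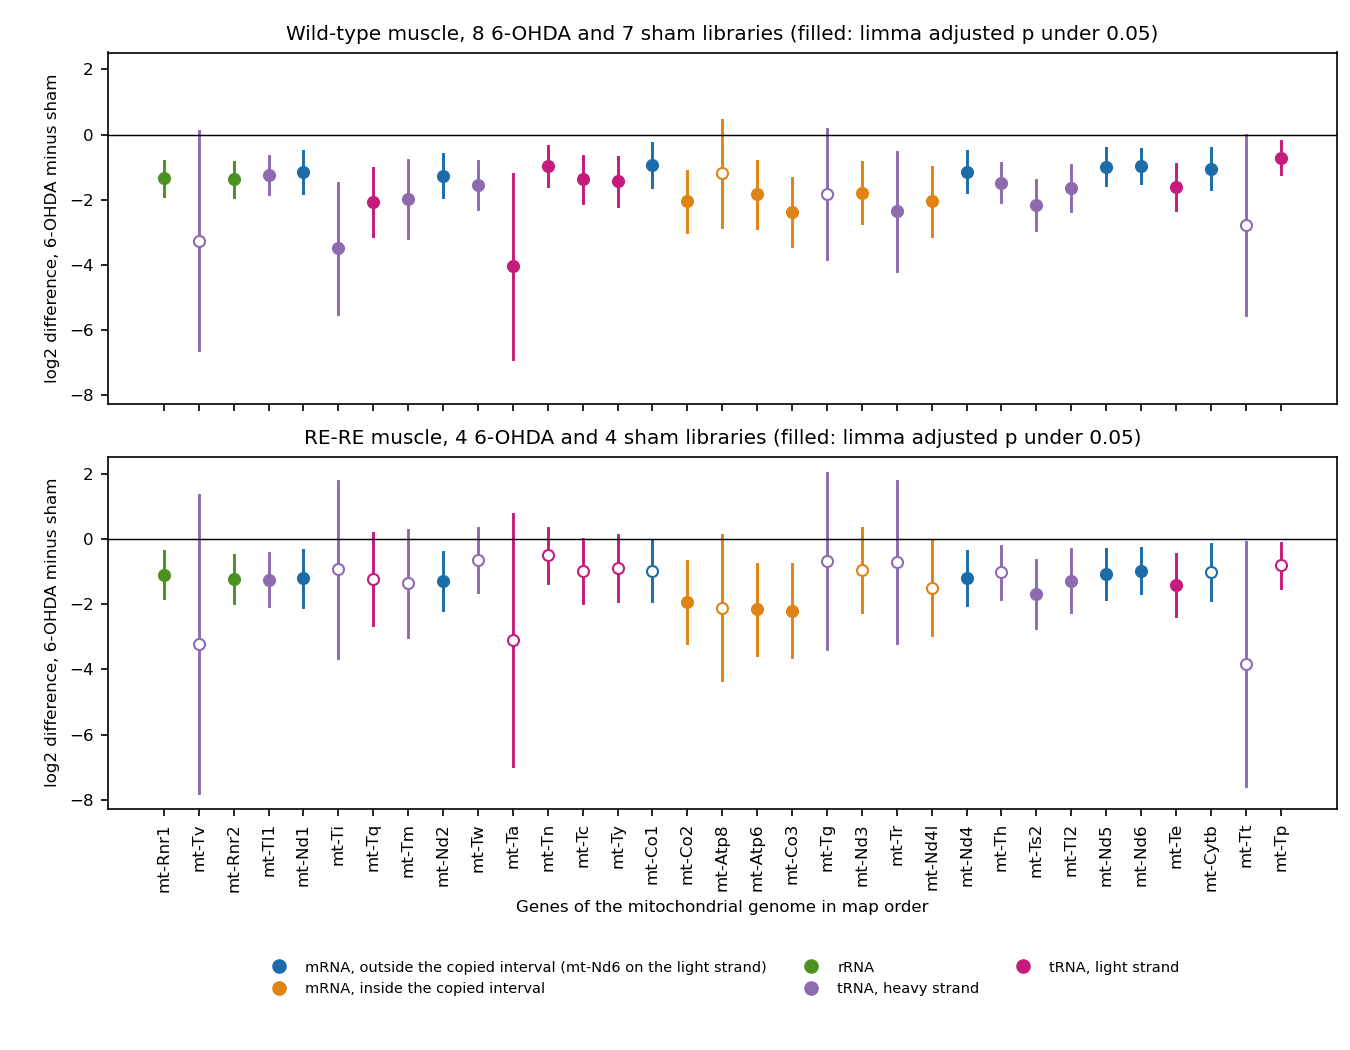
Log2 difference of 6-OHDA minus sham muscle (mean of both times) for each tested mitochondrial gene in map order, in wild-type and RE-RE mice, with 95% confidence intervals from limma; filled points have an adjusted p under 0.05. All 33 points lie below 0 in both genotypes, 29 are filled in wild-type and 14 in RE-RE muscle, and the intervals of RE-RE are wider.

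The separation of libraries gave a second view that uses no pooled spread. With both times together 14 of the 33 members had every wild-type 6-OHDA library below every sham library, against 5.87% of all tested genes. Those members were both ribosomal RNAs, the 7 mRNAs outside the copied interval, mt-Co3, mt-Nd3, mt-Tc, mt-Ts2 and mt-Te. At ZT0 alone 25 of 33 members separated in this way, against 16.1% of all tested genes, and at ZT12 alone 19 of 33, against 20.6%.

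At ZT0 alone, 27 of 33 members were lower in wild-type 6-OHDA muscle, against 10.2% of all tested genes called lower, with a median log2 difference of -2.29. At ZT12 the limma test called 0 of 33, against 0.0156% of all tested genes in either direction. All 33 differences were negative with a median of -0.77, but members that share precursors do not give independent signs. There, 7 members had an unadjusted p under 0.05, and limma-voom on recovered reads called 0. Array weights raised the ZT12 count to 17 and a fit of the compared groups alone to 6. Without 6-OHDA library 1 the ZT0 count fell to 14. The change of the 6-OHDA difference with time was itself not called for any member, as given below with the times of day.

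Size scaling bears on these values, since mitochondrial reads are a large part of each library. Scaled by their own totals of recovered reads, 6-OHDA libraries showed a median over all tested genes of 0.29 in place of -0.04, and 5112 genes higher and 467 lower in place of 2414 and 2044. Under that scaling the members had a median of -1.21 and 26 were lower. Quantile normalization, which fixes the highest ranks and so holds mt-Co1 at 0 by construction, left 22 lower and a median of -0.21 for the 7 mRNAs outside the copied interval.

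In RE-RE muscle the members were also lower after 6-OHDA, with a call that depends on the fit. The limma test called 14 of 33 lower and 0 higher, against 15% of all tested genes called lower and 11.9% called higher, and the median log2 difference was -1.20. The 14 were both ribosomal RNAs, 5 complex I mRNAs (mt-Nd1, mt-Nd2, mt-Nd4, mt-Nd5 and mt-Nd6), mt-Co2, mt-Atp6, mt-Co3, mt-Tl1, mt-Ts2, mt-Tl2 and mt-Te. The count fell to 0 with age as a covariate, with array weights or with the compared groups alone, and to 3 with the replicate number as a block. It ranged from 0 without sham library 1 or 3, or without 6-OHDA library 1 or 4, to 25 without 6-OHDA library 2 and 23 without library 3. Without sham libraries 1 and 3 and 6-OHDA library 2, a choice made after seeing the data, it was 9. RE-RE 6-OHDA mice were older (12 to 18 weeks) than RE-RE sham mice (10 to 11 weeks), so treatment and age cannot be told apart there.

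Within the RE-RE 6-OHDA group the members fell into a low and a high pair of libraries. mt-Rnr2 held 3915, 2418, 2513 and 2401 FPKM in RE-RE sham libraries 1 to 4, and 849, 2258, 1691 and 591 FPKM in 6-OHDA libraries 1 to 4. The groups did not overlap, but libraries 2 and 3 lay close to sham and libraries 1 and 4 far below it. The difference was -1.22 ± 0.35 (SE; 2.34-fold lower; limma adjusted p = 0.0233). mt-Nd1 held 46494, 24426, 43277 and 29195 FPKM in sham and 9613, 24909, 23650 and 8987 FPKM in 6-OHDA libraries. Here 6-OHDA library 2 stood above sham library 2, and the difference was -1.20 ± 0.42 (SE; limma adjusted p = 0.0414).

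mt-Co1 and mt-Cytb did not pass in RE-RE muscle, at -0.99 ± 0.44 (SE; limma adjusted p = 0.0885) and -1.02 ± 0.41 (SE; limma adjusted p = 0.0671). mt-Co1 held 99195, 50469, 88587 and 57624 FPKM in sham and 25074, 52256, 55321 and 22529 FPKM in 6-OHDA libraries. Libraries 1 and 4 lay below all sham libraries and libraries 2 and 3 within the sham range. Libraries 1 and 4 also had the most macrophage marker RNA of the RE-RE set, and the part of that in the members' values was not tested. In 6 of 33 members every 6-OHDA library lay below every sham library, against 1.92% of all tested genes.

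The share of the mitochondrial genome in all recovered reads split the RE-RE 6-OHDA libraries into the same pairs. In RE-RE sham libraries 1 to 4 it was 27.6%, 15.4%, 23.1% and 19.6%, and in 6-OHDA libraries 1 to 4 it was 9.26%, 15.5%, 19.2% and 9.80%. Sham libraries 1 and 3 were thus the highest of all 23, which widens the difference from 6-OHDA muscle, while 6-OHDA libraries 2 and 3 lay within the wild-type sham range of 15.3% to 21.2%.

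**Figure D3:**
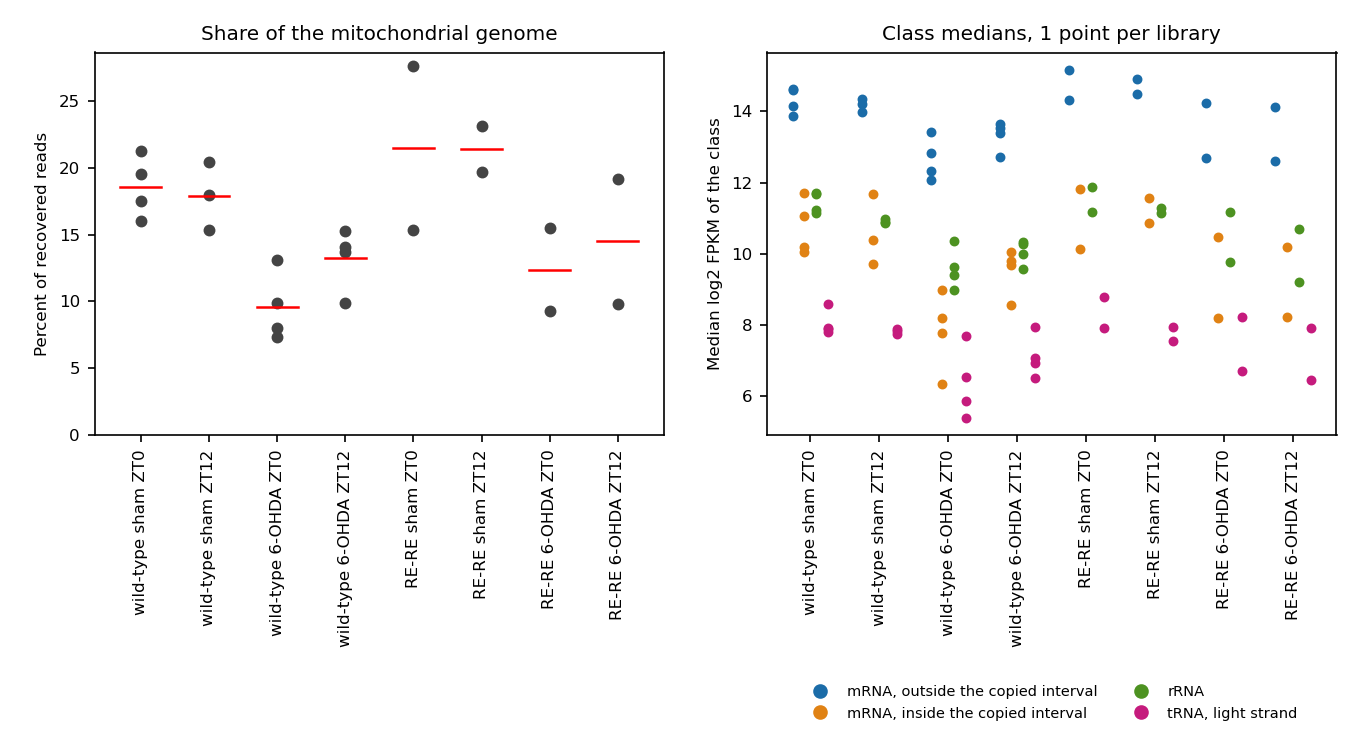
Left, percent of recovered reads from the mitochondrial genome in each of the 23 libraries (points) with group means (red bars); right, the median log2 FPKM of 4 classes in each library. Wild-type 6-OHDA libraries lie below sham in the left panel at 7.31% to 15.3%, RE-RE 6-OHDA libraries split into a low and a high pair, and the mRNAs inside the copied interval reach lower in 6-OHDA muscle at ZT0 than those outside it.

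Whether the 6-OHDA difference changed with genotype was tested directly. The limma interaction called 0 of 33 members, against 0.0702% of all tested genes. No member had an unadjusted p under 0.05, and limma-voom called 0. For mt-Nd1 the change was -0.06 ± 0.52 (SE; 95% interval -1.15 to 1.02) and for mt-Rnr2 0.15 ± 0.44 (SE; 95% interval -0.77 to 1.07), so these data do not resolve a change smaller than about the effect itself.

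No single member passed between RE-RE and wild-type sham muscle. The median difference was 0.39 on the log2 scale, 0 of 33 passed limma or limma-voom and none had an unadjusted p under 0.05, against 9.91% of all tested genes called in either direction. After 6-OHDA the genotypes gave 0 of 33 calls by limma and limma-voom, against 0.226% of all tested genes, with 6 members at an unadjusted p under 0.05 and a median of 0.58. Leaving out RE-RE 6-OHDA library 1 raised this to 3.

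Ratios between members within a library do not depend on the scaling of the library. Log2 differences of 9 pairs of mitochondrial genes were compared between treatments in wild-type muscle and between genotypes in sham muscle, 18 exact two-sided permutation tests with Benjamini-Hochberg adjustment, of which 6 passed. mt-Co1 minus mt-Co2, within complex IV, was 4.67, 4.95, 3.61 and 5.32 in wild-type sham libraries at ZT0 and 3.80, 3.72 and 4.40 at ZT12. After 6-OHDA it was 6.02, 5.85, 5.55 and 6.07 at ZT0 and 4.90, 5.38, 4.64 and 5.05 at ZT12. At each time the 6-OHDA libraries lay above the sham libraries, with a difference of 1.13 (exact permutation, adjusted p = 0.00735) that stayed between 0.96 and 1.24 without any 1 library.

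The copied interval divides that pair, and the 2 other pairs that touch it did not pass in wild-type muscle. mt-Nd4l minus mt-Nd4 differed by -0.92 after 6-OHDA (exact permutation, adjusted p = 0.0798). mt-Atp8 minus mt-Atp6, both inside the interval, differed by 0.65 (exact permutation, adjusted p = 0.669) with library 5 at ZT12 far above the rest. In RE-RE muscle mt-Co1 minus mt-Co2 was 0.94 higher after 6-OHDA, with values of 3.96, 4.62, 4.59 and 4.07 in sham and 5.54, 4.41, 4.75 and 6.30 in 6-OHDA libraries. These overlap, and the design of 36 arrangements allows no p below 0.0556, so no test is given.

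Pairs outside the interval shifted less. The largest shift among them after 6-OHDA in wild-type muscle was that of mt-Rnr2 minus mt-Nd1. It was -0.23 (exact permutation, adjusted p = 0.024), and this pair is taken up below with the times of day. After 6-OHDA in wild-type muscle, mt-Nd1 minus mt-Nd2 was 0.11 higher (exact permutation, adjusted p = 0.024) and mt-Nd1 minus mt-Cytb 0.10 lower (difference -0.10; exact permutation, adjusted p = 0.049). The latter call was lost in 11 of 15 fits that left out 1 library. The strand pairs did not pass: mt-Nd6 minus mt-Cytb differed by 0.09 (exact permutation, adjusted p = 0.443) and mt-Nd6 minus mt-Nd5 by 0.03 (exact permutation, adjusted p = 0.721). mt-Rnr1 minus mt-Rnr2, the neighbours at the start of the transcript, differed by 0.03 (exact permutation, adjusted p = 0.263).

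mt-Nd1 minus mt-Cytb also differed between genotypes in sham muscle. It ranged from -0.44 to -0.25 in the 7 wild-type libraries and from -0.16 to -0.11 in the 4 RE-RE libraries, which did not overlap. The difference was 0.22 (exact permutation, adjusted p = 0.024). mt-Rnr1 minus mt-Rnr2 was lower in RE-RE sham muscle by a difference of -0.14 (exact permutation, adjusted p = 0.024). Both calls were lost without either RE-RE sham library of ZT0. Each p was the smallest that the 150 arrangements allow, and leaving out a library raises that limit. The loss therefore does not show that the calls depend on those libraries. The differences stayed at 0.21 to 0.24 and -0.17 to -0.10 over all libraries left out in turn. RE-RE sham mice were also younger, at 10 to 11 weeks against 12 to 18 weeks, and genotype and age cannot be told apart here.

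**Figure D4:**
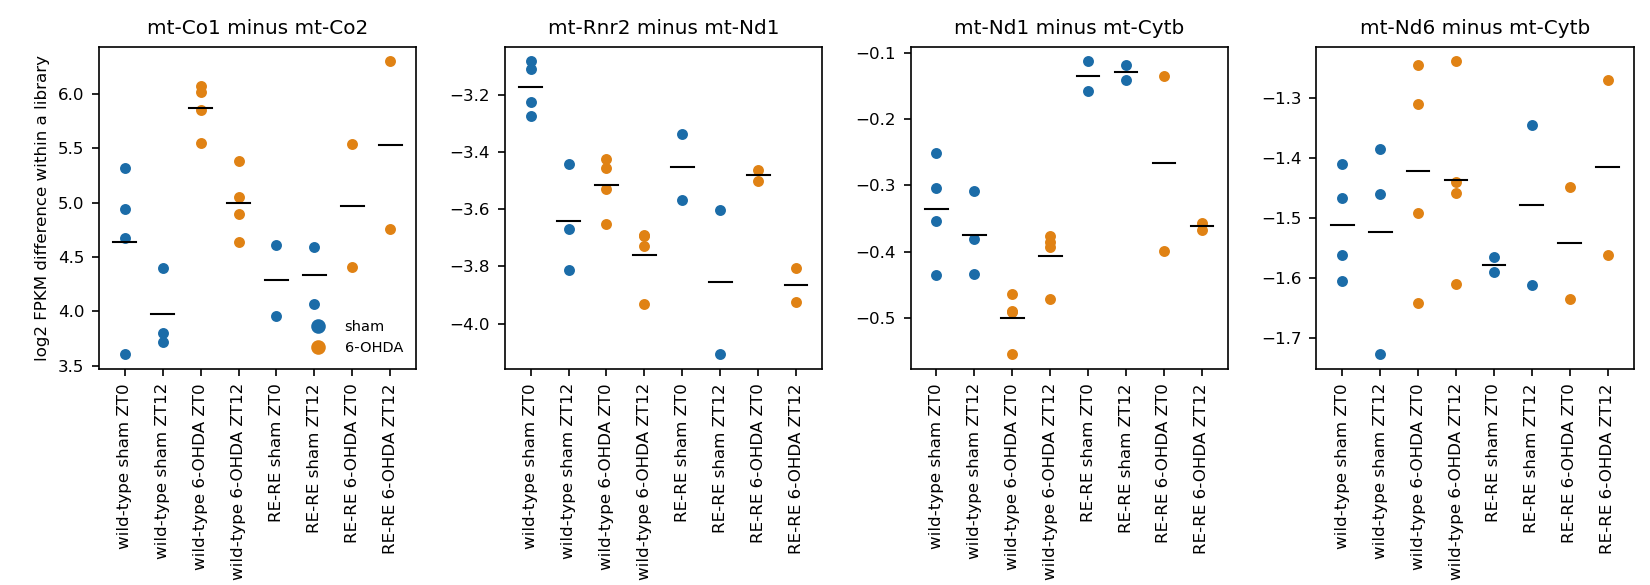
Log2 FPKM difference within a library for 4 pairs of mitochondrial genes in the 8 groups; each point is 1 library, bars are group means, and the y axes differ. mt-Co1 minus mt-Co2 is higher in 6-OHDA than in sham libraries of wild-type muscle, mt-Rnr2 minus mt-Nd1 is lower at ZT12 than at ZT0 in every genotype and treatment, and mt-Nd1 minus mt-Cytb is higher in sham muscle of RE-RE than of wild-type mice.

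Between ZT0 and ZT12 few single members passed. In wild-type sham muscle 0 of 33 passed limma or limma-voom and none had an unadjusted p under 0.05, against 0.647% of all tested genes, and the median ZT12 minus ZT0 difference was -0.07. In RE-RE sham muscle (0.0546% of all tested genes called) and RE-RE 6-OHDA muscle (0.109% called) the counts by limma, by limma-voom and at an unadjusted p under 0.05 were also 0.

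In wild-type 6-OHDA muscle all 33 fitted ZT12 minus ZT0 differences were positive, with a median of 1.06, though the signs of members that share precursors are not independent. Only mt-Ti passed, 1 of 33 against 0.554% of all tested genes called higher, and 14 had an unadjusted p under 0.05. mt-Ti had 0, 0, 0 and 4 reads at ZT0 and 2, 3, 5 and 20 reads at ZT12. Its fitted log2 difference of 5.93 ± 1.30 (SE; limma adjusted p = 0.0381) rests on 3 libraries at 0 reads, and limma-voom called 0 members. The count was 0 with 1 added in place of 0.01, with age as a covariate, and without 7 of the 8 libraries in turn, and 23 with array weights. The change of the time difference with 6-OHDA was called for 0 of 33 members by limma and limma-voom, against 0.0078% of all tested genes, with 5 at an unadjusted p under 0.05.

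The ratio of mt-Rnr2 to mt-Nd1 did separate the times. The comparison of the 9 pairs between times was added after the values were seen. mt-Rnr2 minus mt-Nd1, genes that lie on either side of mt-Tl1 on the same strand, was -3.08, -3.11, -3.22 and -3.28 in wild-type sham libraries at ZT0 and -3.67, -3.81 and -3.44 at ZT12. In wild-type 6-OHDA libraries it was -3.53, -3.65, -3.43 and -3.46 at ZT0 and -3.73, -3.69, -3.93 and -3.69 at ZT12. RE-RE sham libraries had -3.57 and -3.34 at ZT0 and -4.11 and -3.60 at ZT12, and RE-RE 6-OHDA libraries -3.50 and -3.46 at ZT0 and -3.81 and -3.93 at ZT12.

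In each of the 4 combinations of genotype and treatment every ZT12 library lay below every ZT0 library. The mean difference was -0.37, with -0.47 and -0.25 in wild-type sham and 6-OHDA muscle and -0.40 and -0.38 in RE-RE sham and 6-OHDA muscle. The exact permutation test, with labels exchanged within genotype and treatment, gave p = 1.13e-05, the smallest that the 88200 arrangements allow (adjusted over 9 pairs, exact permutation p = 0.000102). The difference stayed between -0.44 and -0.31 without any 1 library. The other 8 pairs did not pass, the nearest being mt-Nd6 minus mt-Nd5 at 0.10 (exact permutation, adjusted p = 0.286).

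The same ratio was also lower after 6-OHDA in wild-type muscle, by a difference of -0.23 (exact permutation, adjusted p = 0.024), a call lost without sham library 7. Over the classes, the median of the ribosomal RNAs minus that of the 7 mRNAs was -2.92 to -2.73 in wild-type sham libraries at ZT0 and -3.37 to -3.13 at ZT12. In wild-type 6-OHDA libraries this class measure was -3.18 to -2.94 at ZT0 and -3.41 to -3.14 at ZT12, which overlap. It did not overlap in RE-RE muscle, at -3.30 to -3.14 and -3.60 to -3.32 in sham and -3.08 to -2.92 and -3.43 to -3.38 in 6-OHDA libraries. The labels do not say whether ribosomal RNA was depleted.

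Nuclear genes of the same complexes were lower too, with a smaller median. Of 77 nuclear subunits of complexes I to V, 48 were lower and 0 higher in wild-type 6-OHDA muscle, against 15.9% of all tested genes called lower. Their median log2 difference was -0.48, against -1.04 for the 7 mitochondrial mRNAs outside the copied interval. Counts of nuclear genes here and below are on the deposited scale. With libraries scaled by their own totals of recovered reads, the median over all tested genes moved from -0.04 to 0.29. Under that scaling 467 genes in place of 2044 were called lower, and the nuclear lists are not given under it. Complex I had 25 of 36 lower, with Ndufb4, an accessory subunit, at -0.83 (limma adjusted p = 0.00785). Complex III had 5 of 9 lower, among them the small subunit Uqcr11 at -0.65 (limma adjusted p = 0.0109). Complex IV had 9 of 11 lower, with Cox6c at -0.74 (limma adjusted p = 0.0102), and ATP synthase 9 of 17, with Atp5e at -0.68 (limma adjusted p = 0.0104). Complex II, which has no mitochondrially encoded subunit, had 0 of 4 by limma and limma-voom and 1 at an unadjusted p under 0.05, with a median of -0.16. In RE-RE 6-OHDA muscle 20 of the 77 were lower, against 15% of all tested genes called lower, with a median of -0.57. There complex II had 2 of 4 lower with a median of -0.52, complex I 13 of 36 and ATP synthase 5 of 17. Complex III had 0 of 9 by limma, 2 by limma-voom and 5 at an unadjusted p under 0.05, and complex IV had 0 of 11 by limma and limma-voom and 7 at an unadjusted p under 0.05.

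Of the genes that make and keep mitochondrial RNA and DNA, smaller shares were lower than of the 77 nuclear subunits. These shares are to be read against the 15.9% of all tested genes called lower. Of 9 transcription genes, 2 were lower in wild-type 6-OHDA muscle, a share near that of all tested genes. They were the initiation factor Tfb2m at -0.52 (limma adjusted p = 0.0238) and Mterf3, a repressor of mitochondrial transcription, at -0.38 (limma adjusted p = 0.0084). The polymerase Polrmt differed by -0.15 (limma adjusted p = 0.543) and the packaging factor Tfam by -0.30 (limma adjusted p = 0.103). Of 32 genes of RNA processing and decay, 6 were lower, a share near that of all tested genes. Among them was the RNA stabiliser Slirp at -0.58 (limma adjusted p = 0.0131). Of 14 genes of mitochondrial DNA maintenance, 5 were lower, a larger share than that of all tested genes, and the excess was not tested. Among the 5 were the nuclease Mgme1 at -0.77 (limma adjusted p = 0.00255) and the single-strand binding protein Ssbp1 at -0.49 (limma adjusted p = 0.0124).

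Of the 17 mitochondrial aminoacyl-tRNA synthetases, which charge the transfer RNAs, 0 passed limma or limma-voom and 1 had an unadjusted p under 0.05, with a median of -0.04. Among 14 tested regulators of mitochondrial biogenesis, Ppara, a lipid-sensing nuclear receptor, was higher at 0.72 (limma adjusted p = 0.0294) and the deacetylase Sirt1 lower at -0.26 (limma adjusted p = 0.0364). These calls stand against 18.8% of all tested genes called higher and 15.9% called lower. In RE-RE 6-OHDA muscle 3 of the 14 regulators were lower, a share near the 15% of all tested genes called lower there. Among the 3 was the coactivator Ppargc1a at -0.68 (limma adjusted p = 0.0318).

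Markers of other cells moved with the same contrast, and their part in the members' values was not tested. In wild-type 6-OHDA muscle 14 of 14 macrophage markers were higher, and their summed level was 32.9 to 86.8 FPKM in sham and 184 to 632 FPKM in 6-OHDA libraries. All 10 fibroblast and matrix genes and 8 of 10 genes of regenerating muscle were higher, as were 3 of 5 adipocyte, 4 of 8 Schwann cell and 1 of 8 endothelial markers. Of the erythroid genes, 3 of 5 were lower. All these counts are to be read against 18.8% of all tested genes called higher and 15.9% called lower. The endothelial count is not above that share. Of 12 fast muscle genes 7 were lower and 1 higher, with a median log2 difference of -0.58, and their sum was 73465 to 89794 FPKM in sham and 45723 to 66860 FPKM in 6-OHDA libraries. In RE-RE muscle 8 of 10 regenerating muscle genes and 5 of 8 endothelial genes were higher, against 11.9% of all tested genes called higher. There 1 of 5 erythroid genes was lower, a share near the 15% of all tested genes called lower. The limma test called 0 genes of the other marker lists. Of these, 5 fast muscle, 1 macrophage, 2 matrix, 0 adipocyte and 0 Schwann cell genes had an unadjusted p under 0.05, and limma-voom called 5 fast muscle genes (1 higher, 4 lower) and 0 of the others. The lowest sum of fast muscle genes in any of the 23 libraries, 45723 FPKM, stood above the highest sum of macrophage markers, 632 FPKM. The lists hold different genes, so these sums do not compare amounts of cells.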

How the data were processed

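Total RNA of 23 tibialis anterior libraries was read as 150-base pairs. The submitters' processing notes name build GRCm38 and, in no stated order, featureCounts 1.6.2, HISAT2 2.1.0, edgeR 3.30.0, Trim Galore 0.5.0 and FastQC 0.11.8; counting by strand, reads with several matches and the annotation release are not given in the sources used here. The authors deposited log2 FPKM values, which hold 0.01 added before the logarithm (the lowest value is -6.64). No count model was the main test. With exon lengths from GENCODE M21 for 14435 of 14500 genes, whole reads were recovered in each library: 86.4% to 94.7% of values of up to 20 reads came within 0.1 of a whole number.

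The deposited log2 values were fitted with limma 3.58.1 (R 4.3.3; 1 mean per group, trend), for the 12820 genes that reached an FPKM of 1 in 2 libraries or more, at an adjusted p of 0.05. Pairs of genes were compared by exact permutation (scipy 1.17.1), with sham and 6-OHDA labels exchanged within a time, or genotypes within a time. Copies were found with blastn 2.17.0 at 99% identity among GENCODE transcripts. Deviations of same-numbered RE-RE sham and 6-OHDA libraries correlated at 0.10 to 0.17, which mirror each other in groups of 2, though the mice differed in age, so the blocked count is given beside that result. Both kinds of test were checked on simulated data. The limma check drew independent genes with the same spread in all groups, so it does not cover the wider spread of RE-RE libraries. The permutation check used only the layout of the wild-type sham and 6-OHDA test. Alternatives were another added constant, filters, scalings, limma-voom on recovered reads, array weights, age, a replicate block, the compared groups alone and each library left out. The members, gene lists and pairs were chosen with earlier results of these data known. All members are named or counted; of each pathway list at most 4 genes are named, those with the smallest p among genes past the wild-type 6-OHDA test. Polrmt, Tfam and Ppargc1a were added after their values were seen.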

Additional observations from a re-analysis of the deposited data

Results flagged for a closer look

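In groups of 4 libraries, 128 sets of values of members and pairs were checked for a library far from the other 3, and 10 were found; chance gives about 1 in 20 such groups. The value given is the gap to the nearest library as a share of the group's range. In wild-type sham muscle at ZT0 it was 0.978 for mt-Ta (library 3 low), 0.948 for mt-Atp8 (library 2 low) and 0.845 for mt-Nd1 minus mt-Nd2 (library 1 low). In wild-type 6-OHDA muscle at ZT0 it was 1 for mt-Ti and for mt-Tt (library 4 high, the others at 0 reads) and 0.862 for mt-Co3 (library 1 low). In wild-type 6-OHDA muscle at ZT12 it was 1 for mt-Tv (library 7 high, the others at 0 reads), 0.903 for mt-Co3 and 0.909 for mt-Nd4l (library 6 low), and 0.843 for mt-Rnr2 minus mt-Nd1 (library 7 low). Where the other libraries were tied at 0 reads, the value of 1 follows from the tie, and the chance rate does not apply.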

How the results depend on the processing

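For wild-type 6-OHDA muscle over both times the count of lower members stayed between 22 and 31 under the alternatives, 25 to 30 without each library and 25 with the replicate block. At ZT0 it was 14 to 31 without each library. At ZT12 it was 17 with array weights and 6 with the compared groups alone. The RE-RE 6-OHDA count of 14 became 0 with array weights, with age or with the compared groups alone, 3 with the replicate block, 9 with RE-RE sham libraries 1 and 3 and RE-RE 6-OHDA library 2 all left out (added later), and 0 to 25 without each library. The RE-RE against wild-type 6-OHDA count was 0 to 3 without each library. For time in wild-type 6-OHDA muscle the count of 1 (mt-Ti) became 0 with log2(FPKM + 1), a mean filter, limma-voom, age or without members that have a library at 0 (added later), 23 with array weights, 2 with the compared groups alone, and 0 to 1 without each library. The change of the time difference with 6-OHDA gave 3 with array weights and 0 to 1 without each library. Of 18 pair tests, 3 to 7 passed without each library. Differences that changed sign were mt-Tp at ZT0 with quantile normalization (0.0114) and, without each library, mt-Tw in RE-RE 6-OHDA muscle (-1.34 to 0.0701), mt-Nd6 minus mt-Cytb (-0.0767 to 0.0558) and mt-Co1 minus mt-Co2 (-0.168 to 0.168) between genotypes, mt-Nd6 minus mt-Nd5 in wild-type 6-OHDA muscle (-0.0078 to 0.0521), and mt-Nd1 minus mt-Cytb (-0.0414 to 0.0245) and mt-Rnr1 minus mt-Rnr2 (-0.0141 to 0.0195) between times; the cause was not tested. Deviations of same-numbered sham and 6-OHDA libraries correlated at -0.12 to 0.07 in wild-type muscle, which gives no pairing, and the block moved the count over all genes there from 4458 to 4232 and in RE-RE muscle from 3446 to 3163. Depth limits the transfer RNA genes with under 20 reads.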
